A study of Rattus norvegicus with 48 samples.

Results

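Visceral fat (VAT) of exercised rats was compared between the late and the early active phase, using 12 of the 48 libraries of a study of fat in male adolescent rats. The members were set by their labels: 6 VAT libraries of late active phase exercise (LAE) and 6 of early active phase exercise (EAE). The comparison itself was chosen with earlier results of these data known. The late group belonged to zeitgeber time 23 and the early group to zeitgeber time 13, where zeitgeber time counts the hours since lights on. All rats were male, the labels state no genetic change, and fat was collected at postnatal day 61, with 24 h between the final session and collection. Sedentary late (LAC) and early (EAC) controls, 6 VAT libraries each, were used only where stated. The labels give neither the strain nor the kind, length or intensity of the exercise, nor which visceral pad was sampled. Because of that 24 h interval, the hour of exercise and the hour of collection move together, and they cannot be told apart here.

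Rats are active in the dark, so the early phase lies just after lights off and the late phase just before lights on. Fat cells, like most cells of the body, hold a circadian clock, a loop of transcription factors that switch on their own repressors and so rise and fall once a day, and many genes of lipid and glucose handling follow it. Feeding, body temperature and hormones such as glucocorticoids also vary over the day and act on fat. Visceral fat surrounds the abdominal organs and is a mixed tissue of adipocytes, their precursors, vessels, immune cells and the mesothelium that covers it. In a bulk sample, fewer cells of a type and less RNA per cell cannot be told apart.

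The deposited table names genes by Ensembl ID, and no source used here pairs these IDs with symbols. Genes are therefore described by their values, and 4 of them by their ID, with no name or function given to any. The identity of the tissue could not be checked against adipocyte or other marker genes. The libraries held 15177440 to 17569730 estimated counts (median 15530641). CPM below are counts scaled to a common library total, with TMM normalisation; before it 1 count was worth at most 0.0659 CPM. Of 23481 IDs, 4341 had no count in any of the 12 libraries and 13453 passed the filter on low counts, which kept 99.89% of the counts.

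The library labelled early exercise replicate 3 stood apart from the other 11. Its median rank correlation with them was 0.948, against 0.975 to 0.981 for the others, and it held a count for 17034 genes, against 15959 to 16308. In it 307 genes lay over 4-fold above the median of the other 5 early libraries. In the other early libraries 6 to 21 genes did so, and in the late libraries, against their own group, 8 to 32. These 307 genes took 1.66% of its counts and 0.162% to 0.264% in the others. Over all 24 VAT libraries the same measure gave 387 genes in this library and 301 in early control replicate 5, and 241 were on both lists, which is 62.3% of the first list and 80.1% of the second. Of the 298 among the 307 that were tested in subcutaneous fat (SAT), 2 were raised in the SAT early exercise library of the same number. No label ties that library to the same rat, and counts for the other SAT libraries are not given here. Without symbols, which cell type or tissue these genes mark was not tested. The counts of called genes are given with and without this library. Other results include it unless stated.

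**Figure D1:**
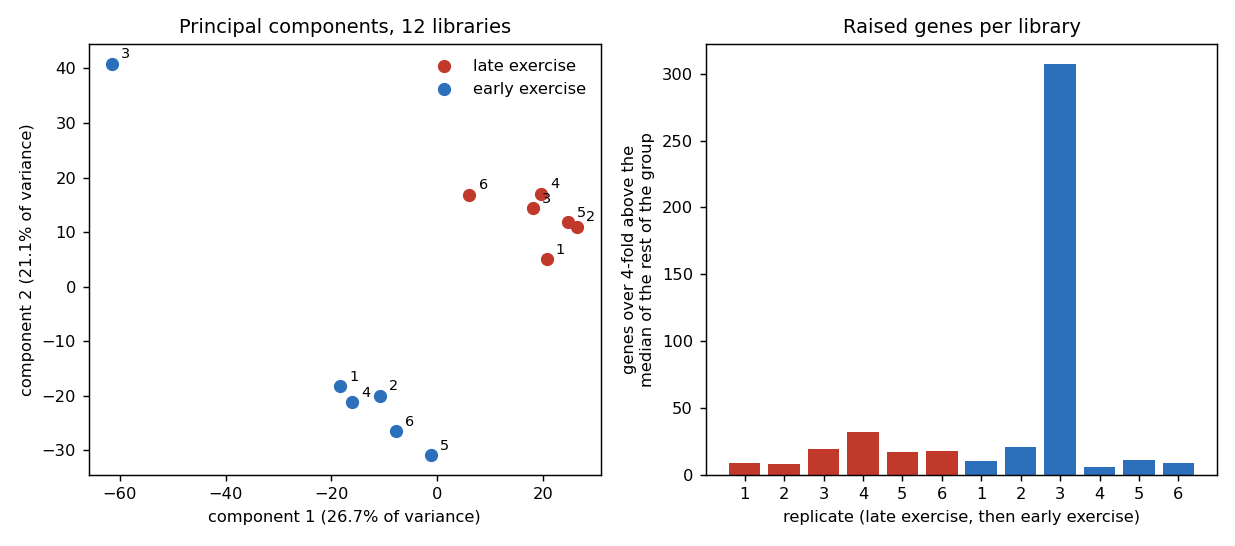
Left, the 12 libraries on the first 2 principal components of log2 CPM (26.67% and 21.15% of the variance), numbered by replicate, with late exercise in red and early exercise in blue. Right, the number of genes in each library over 4-fold above the median of the rest of its group; early exercise replicate 3 has 307 and the others between 6 and 32.

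Late exercise libraries lay between 6.095 and 26.48 on the first component and early exercise libraries between -61.48 and -1.129, so the phases did not overlap there. The value of -61.48 was that of early replicate 3, and the next early library lay at -18.33. The components were computed with replicate 3 included, so both are in part shaped by it. On the second component the 6 late libraries lay between 4.994 and 17.05. Here 5 early libraries lay between -30.93 and -18.28, and early replicate 3 lay at 40.9, beyond the late group on the far side.

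In visceral fat of exercised rats 2262 of 13453 tested genes differed between the late and the early phase, which was 16.8% of those tested. Of these 1072 (7.97%) were higher late and 1190 (8.85%) were lower late (edgeR's quasi-likelihood test, Benjamini-Hochberg adjusted p under 0.05, 6 rats per group). Most differences were small. Under 1.5-fold lay 1445 of the called genes, 521 lay between 1.5-fold and 2-fold, and 296 (2.2% of those tested) exceeded 2-fold. The median absolute log2 fold change was 0.48 among called genes and 0.17 over all tested genes.

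Of the changes over 2-fold, 136 were higher late and 160 lower late, and of those over 4-fold, 21 and 28. Without early exercise replicate 3, 2994 of 13493 genes were called (22.2%), 1421 higher and 1573 lower late. Those over 2-fold were 163 and 170, and those over 4-fold 21 and 24. Of the first 2262 calls 2164 were called again, all in the same direction, and 98 were not, while 830 genes were called only without that library. The common biological coefficient of variation, the spread between rats beyond counting error, was 20.6% with it and 15.1% without it.

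Few of the calls were genes raised in early replicate 3. Of the 307, 286 had a lower fitted level late than early, with a median log2 fold change of -0.99, and 7 were called (2.28%, against 16.8% of all tested genes), all lower late. Without that library their median was 0.08 and 25 were called, where 22.2% of all tested genes were. Genes chosen for a high value in 1 of the 6 early libraries have a wide spread in that group, so these shares are a description. Of the 28 called falls over 4-fold, 2 were among these genes, and 21 of the 28 were still over 4-fold without the library. Of the 21 called rises over 4-fold, 19 were.

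**Figure D2:**
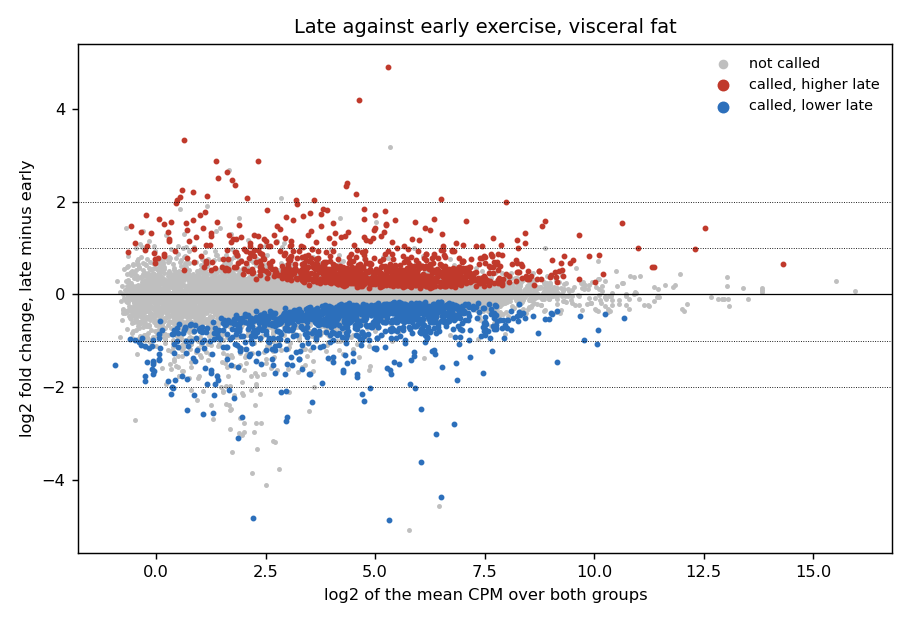
Each point is 1 of the 13453 tested genes, placed by the log2 of its mean CPM over both groups and by its log2 fold change (late minus early); 1072 called rises are red, 1190 called falls blue and the rest grey, with dotted lines at 2-fold and 4-fold. Most coloured points lie inside the 2-fold lines, and a spread of grey points with large negative values at low CPM is not matched above zero.

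Genes are ranked here by fold change among called genes with a group mean of 5 CPM or more and without overlap between the groups; other called genes are not ranked. The gene with the largest rise was ENSRNOG00000013408. The 6 late exercise libraries held 54.5, 79.7, 82.8, 74.9, 100 and 63.3 CPM of it, and the 6 early exercise libraries 3.11, 2.07, 2.91, 1.96, 2.45 and 2.68 CPM. The lowest late library was 17.5-fold above the highest early one, the widest such gap of any called gene. The fitted log2 fold change was 4.90 ± 0.168 (SE), which is 29.8-fold (adjusted p = 9.29e-10, edgeR).

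ENSRNOG00000014448 was the second largest rise. It stood at 44.7, 40.4, 48.7, 48.3, 51.2 and 49.4 CPM in late exercise libraries, against 1.59, 1.84, 5.26, 2.33, 2.1 and 2.03 CPM in early exercise libraries. The groups were far apart, and the 5.26 CPM belonged to the atypical early replicate 3, more than double the next early value. The log2 fold change was 4.196 ± 0.235 (SE; adjusted p = 1.94e-07, edgeR), and without that library 4.58 ± 0.102 (adjusted p = 3.68e-11).

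The largest fall was that of ENSRNOG00000009329. Late exercise libraries held 2.04, 1.5, 2.66, 2.39, 5.24 and 1.98 CPM, and early exercise libraries 117, 88.7, 63.9, 68.2, 61.9 and 62.0 CPM. Late replicate 5 was the highest of its group and still 11.8-fold below the lowest early library. The log2 fold change was -4.86 ± 0.277 (SE), or 29.1-fold lower late (adjusted p = 2.07e-07, edgeR).

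ENSRNOG00000042717 was the second largest fall and had few counts at the late phase. Its late exercise libraries held 4, 4, 6, 6, 8 and 1 counts, which is 0.062 to 0.511 CPM, and its early exercise libraries 169, 220, 151, 77, 131 and 131 counts, which is 4.73 to 13.0 CPM. The groups were separated by 9.25-fold at their closest libraries. The log2 fold change was -4.81 ± 0.336 (SE; adjusted p = 1.41e-06, edgeR), and it rests on these low late counts.

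The falls ranked next had more counts and less spread between rats than the first pair. The third stood at 6.63 to 10.7 CPM in late exercise libraries (median 8.49), against 138 to 208 CPM in early exercise libraries (median 173), a log2 fold change of -4.37 ± 0.139 (SE; adjusted p = 5.56e-10, edgeR). The fourth averaged 10 ± 1.56 CPM in late and 123 ± 7.67 CPM in early exercise (SD, n = 6 each), a log2 fold change of -3.62 ± 0.102 (SE), and had the smallest adjusted p of all tested genes (2.27e-10, edgeR). The rises after the first pair were smaller. The third rise held 7.3, 9.54, 10.8, 9.46, 12.6 and 3.47 CPM in late exercise libraries, against 0.675 to 1.77 CPM in early exercise libraries. The fourth rise held 4.17 to 6.39 CPM in late and 0.366 to 1.18 CPM in early exercise libraries. Late replicate 6 was the lowest of its group for the third rise but did not overlap the early group.

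**Figure D3:**
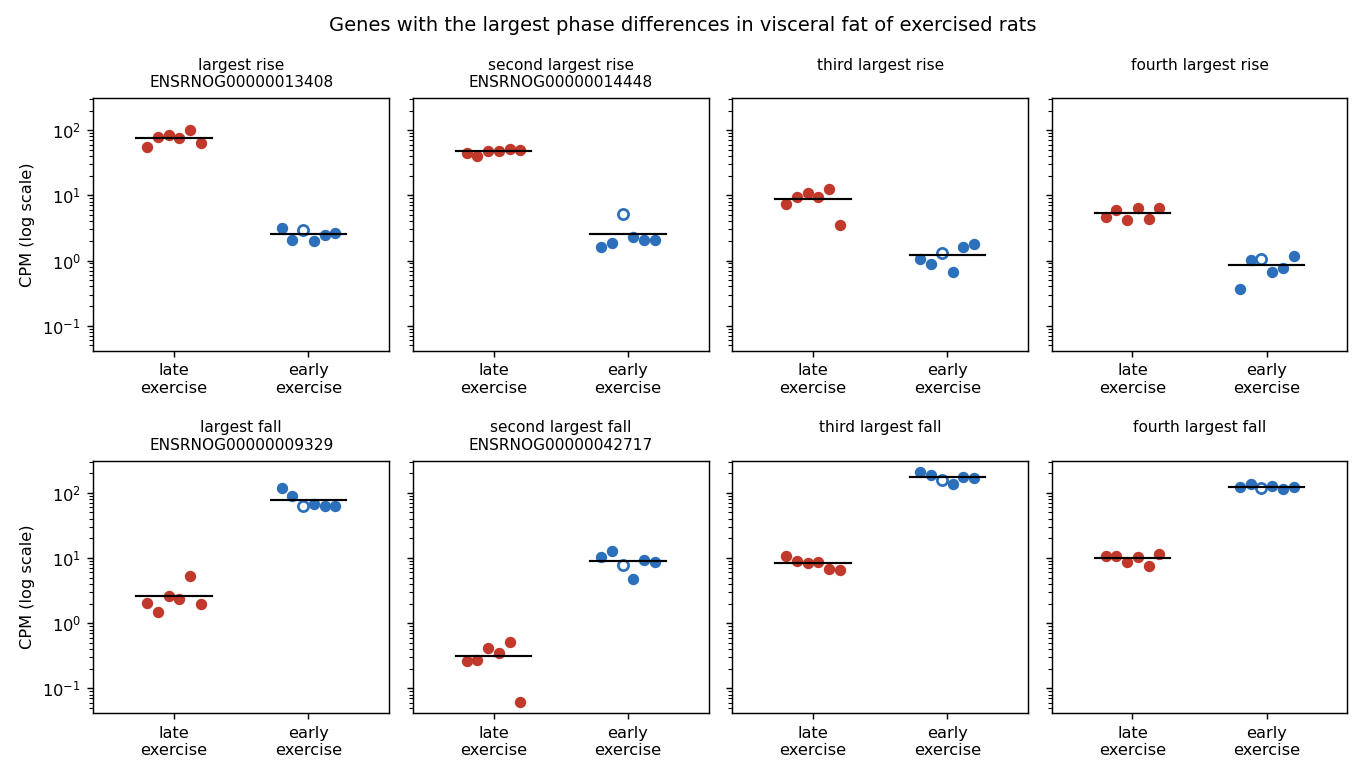
CPM on a log axis of the 4 genes with the largest rises (top) and the 4 with the largest falls (bottom) in each library, late exercise in red and early exercise in blue, with the group mean as a line and early exercise replicate 3 as an open circle. No late library overlaps an early one in any panel, and the open circle stands out from its group for the second rise.

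Genes with such separation were ranked among 494 rises and 466 falls, out of 13453 tested genes. These were called, reached a mean of 5 CPM in a group and had no overlap between the 6 late and the 6 early libraries. The 12 largest rises had log2 fold changes from 2.05 to 4.90 and the 12 largest falls from -2.29 to -4.86. At the phase where each was high, the rises averaged 5.29 to 147 CPM late, and the falls 6.5 to 194 CPM early. CPM is not scaled by gene length, so these values do not order the genes by their level.

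All 24 remained called without early replicate 3. As they were chosen from the same libraries for no overlap between the groups, this is a description. The fifth largest fall is the exception in size: late exercise libraries held 0.409 to 1.09 CPM, 5 early exercise libraries 1.24 to 1.6 CPM, and early replicate 3 held 32 CPM. Its log2 fold change was -3.10 ± 0.94 (SE; adjusted p = 0.0378, edgeR) with that library and -0.88 ± 0.249 (adjusted p = 0.024) without it, so most of its size came from that library. Its place in the ranking did too, as the other 5 early libraries lie below the 5 CPM the ranking asks for. Early control replicate 5 held 27.0 CPM of the same gene, against 0.586 to 1.64 CPM in the other early controls.

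Over all tested genes, 1097 (8.15%) had no overlap between the groups, 552 higher (4.1%) and 545 lower late (4.05%), and 1055 of them were called. These 1055 are 46.6% of all calls, so for more than 1 in 2 called genes the ranges of the late and the early libraries overlapped. Among the 296 called genes over 2-fold, 204 did not overlap. At their closest libraries the groups were more than 2-fold apart for 14 called rises and 22 called falls, and more than 4-fold apart for 2 and 7.

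The share called and the precision were described by count. Genes were placed in 4 equal bins by mean count. In the bin with the fewest counts (means of 8.42 to 99.8 per library) 10.1% were called, with a median SE of 0.23 on the log2 scale and a median absolute log2 fold change of 0.86 among the calls. In the second bin (99.9 to 308) 15.9% were called, with a median SE of 0.117 and a called median of 0.50, and in the third (308 to 781) 19.2%, with 0.0859 and 0.36. In the bin with the most counts (781 and above) 22% were called, with a median SE of 0.0869 and a median absolute log2 fold change of 0.42. Neither the SE nor the called median was lower in the top bin than in the third. The calls over 2-fold were spread over these bins as 134, 64, 47 and 51, from the fewest to the most counts.

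The called rises took up more of each library than the called falls gave back. Genes called higher late made up 12% to 14.6% of the counts in late exercise libraries (median 13.9%), against 8.23% to 9.5% in early exercise libraries (median 9.18%). Genes called lower late made up 4.23% to 5.29% in late libraries (median 4.53%) and 6.62% to 7.51% in early libraries (median 7.22%). As these genes were chosen by this comparison, the shares describe the calls and were not tested.

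A few genes carried the first of these gains. The rises summed to 49300 CPM, 10 genes accounted for 50% of that sum, and 1 gene for 18.4%. That gene held 18600 to 30700 CPM in late exercise libraries (median 25600) and 10700 to 20800 CPM in early exercise libraries (median 15900), with overlapping groups and a log2 fold change of 0.65 ± 0.178 (SE; adjusted p = 0.024, edgeR). The next held 5320 to 10900 CPM late (median 8950) and 1930 to 4220 CPM early (median 3140) without overlap, a log2 fold change of 1.43 ± 0.209 (adjusted p = 0.000616). The falls were spread more evenly. They summed to 22200 CPM, 82 genes made up 50% of that, and the largest share of 1 gene was 3.42%.

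Rats within a group differed about equally at both phases once the atypical library was set aside. The median SD of log2 CPM over the 13453 genes was 0.164 among the 6 late exercise rats and 0.217 among the 6 early exercise rats, and 0.168 among early rats without replicate 3. Among called genes these medians were 0.158, 0.186 and 0.149.

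The same phases in sedentary rats provide the measurement without exercise, in libraries shared with neither exercise group. In a fit of the 12 sedentary VAT libraries 1364 of 13530 genes were called (10.1%), 658 higher (4.86%) and 706 lower late (5.22%). Of the 2254 genes called in exercised rats that were also tested in sedentary rats, 2155 (95.6%) had the same sign there, against 75.3% of all 13387 genes tested in both. In sedentary rats 874 of them were called, all in the same direction, and none was called in opposite directions. Of the 49 called over 4-fold in exercised rats, all 49 had the same sign in sedentary rats and 38 were called there. Without early exercise replicate 3 and early control replicate 5, 2827 of 2984 genes called in exercised rats (94.7%) had the same sign in sedentary rats. Over all 13409 genes tested in both, that share was 74.1%. In sedentary rats 1158 of the 2984 were called, all in the same direction.

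The sizes compared differently depending on which group chose the genes. Among genes called over 2-fold in exercised rats, the median absolute log2 fold change was 1.39 in exercised and 1 in sedentary rats (291 genes). Among those called over 2-fold in sedentary rats it was 1.39 in exercised and 1.34 in sedentary rats (199 genes), and 82 of the 199 were larger in exercised rats. Without the 2 atypical early libraries the second set gave 1.26 and 1.35 (217 genes). Choosing genes by 1 group raises the values of that group, so a set chosen on the mean of both was used as well. Of 13883 genes in the fit of all 24 VAT libraries 30.6% were called for phase on that mean, 400 of them over 2-fold, 123 higher and 277 lower late, and 267 of the 400 had the larger difference in exercised rats, with medians of 1.6 in exercised and 1.33 in sedentary rats. Without the atypical pair 33.6% of 13875 genes were called, 307 of them over 2-fold, and 188 of the 307 were larger in exercised rats, with medians of 1.53 and 1.27. Over all genes tested in both separate fits, 8087 of 13387 had the larger difference in exercised rats, and 7856 of 13409 without the atypical pair. The lean towards exercised rats was thus not particular to the genes called for phase.

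**Figure D4:**
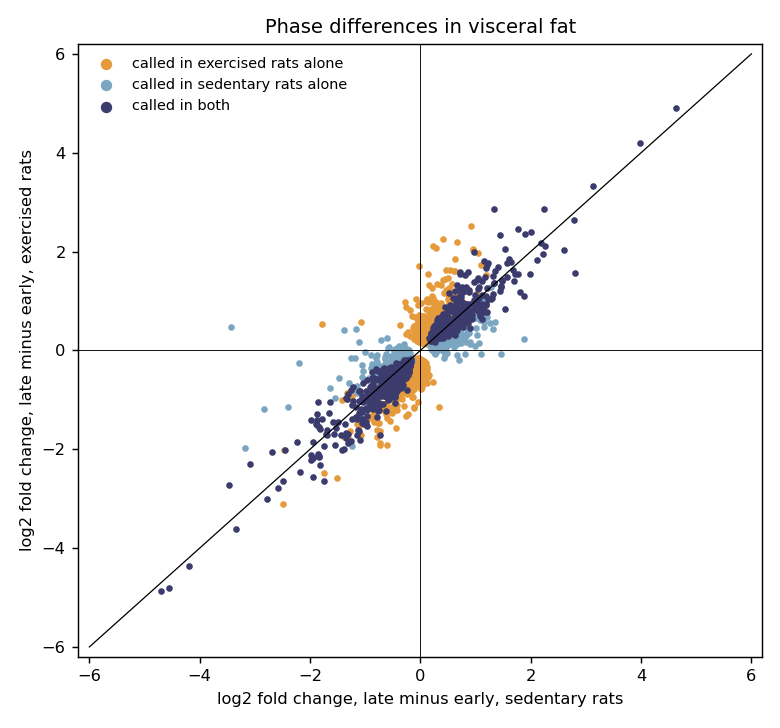
Log2 fold change (late minus early) of VAT genes in exercised rats (vertical) against sedentary rats (horizontal), for genes tested in both and called in exercised rats alone (orange), in sedentary rats alone (light blue) or in both (dark); the diagonal marks equal values. All 874 genes called in both have the same sign in both, and most genes called in exercised rats alone lie farther from 0 on the vertical than on the horizontal axis.

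No gene passed edgeR's test of the difference in phase effect between exercised and sedentary rats. Of 13883 genes 0 were called (0%) with edgeR over the 24 VAT libraries, where 975 had an unadjusted p under 0.05 and the smallest adjusted p was 0.441. DESeq2 called 2 genes, 1 in each direction, and limma voom 0, with 1609 at an unadjusted p under 0.05. Without early exercise replicate 3 edgeR again called 0; 1425 genes had an unadjusted p under 0.05, and no adjusted p was below 0.258. By edgeR and voom no gene is thus shown to have a phase difference particular to exercised rats, which does not show that the effects were equal.

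For the 4 named IDs the difference between the phase effects had the following intervals. They say nothing of an exercise effect that is equal at both phases, and the 4 were chosen by their values in exercised rats. In the fit of 24 libraries ENSRNOG00000013408 rose by 4.91 ± 0.204 in exercised and 4.63 ± 0.203 in sedentary rats (log2, SE), a difference of 0.28 with a 95% interval from -0.29 to 0.86. Sedentary rats held 60.7 ± 12.7 CPM late and 2.47 ± 0.917 CPM early (SD, n = 6 each). The difference was 0.23 (interval -0.49 to 0.95) for ENSRNOG00000014448, -0.14 (-0.94 to 0.65) for ENSRNOG00000009329 and -0.23 (-1.28 to 0.83) for ENSRNOG00000042717. The adjusted p-values of the 4 lay between 0.897 and 0.973 (edgeR). All 4 intervals include 0.

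Of the 24 ranked genes, 10 of the 12 rises and 11 of the 12 falls were also called in the sedentary fit. That fit called 10.1% of the genes it tested. All 24 had the same sign there, against 75.3% of all genes tested in both fits. The 2 rises and 1 fall not called there are the tenth and twelfth rises and the fifth fall. The tenth rise held 3.22 to 15.7 CPM in late exercise libraries, with a median of 5.67, against 0.885 to 2.93 CPM in early exercise libraries. In sedentary rats it held 2.56 to 5.49 CPM late and 0.943 to 5.6 CPM early, which overlapped. The ranking asked for no overlap in exercised rats alone, so this contrast is in part set by the choice of genes. Its interaction was 1.81 ± 0.599 on the log2 scale (SE; unadjusted p = 0.00616, adjusted p = 0.582, edgeR). The third rise was called in both activities but stood at 3.47 to 12.6 CPM in late exercise and 3.27 to 5.42 CPM in late control libraries, with an interaction of 1.54 ± 0.409 (SE; unadjusted p = 0.000995, adjusted p = 0.474). The eighth rise, at 33.9 ± 9.65 CPM in late and 6.76 ± 1.81 CPM in early exercise (SD, n = 6 each), had an interaction of 0.90 ± 0.265 (SE; unadjusted p = 0.00251, adjusted p = 0.484, edgeR). With the eleventh fall (-0.49 ± 0.204, unadjusted p = 0.0242, adjusted p = 0.649, edgeR) these were the 4 of the 24 with an unadjusted p under 0.05. The eighth and twelfth falls leaned the other way, with smaller falls in exercised rats (0.76 ± 0.373 and 0.81 ± 0.521, unadjusted p = 0.054 and 0.136, edgeR). None of the 24 passed the threshold over all genes. As the 24 were chosen by their values in exercised rats, their interactions lean towards larger differences there. Their unadjusted p-values (edgeR) are a description.

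The smallest p of the interaction belonged to a gene that held 17.8, 28.7, 28.9, 24.5, 25.6 and 15.6 CPM in late exercise libraries and 10.7, 10.8, 14, 8.01, 11.3 and 9.68 CPM in early exercise libraries. Sedentary rats held 12.3 to 15.9 CPM late and 10.1 to 13.7 CPM early. The exercised groups thus did not overlap, while the sedentary groups did. Of all genes tested in exercised rats, 8.15% had no overlap. As this gene was chosen for its interaction in these same libraries, the contrast is in part set by that choice. The interaction was 0.93 ± 0.196 on the log2 scale (SE; unadjusted p = 9.3e-05, adjusted p = 0.441, edgeR) and 1.04 (adjusted p = 0.292) without the atypical pair. The smallest p among negative interactions was that of a gene at 48.1 ± 7.77 CPM in late exercise, 83.4 ± 9.3 CPM in early exercise, 61.2 ± 4 CPM in late control and 72.2 ± 5.58 CPM in early control (SD, n = 6 each; interaction -0.56 ± 0.129, SE; adjusted p = 0.441).

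Genes called over 2-fold for phase in sedentary rats, 95 higher and 109 lower late, were used to place each exercised library on a scale its own values had not chosen. The score is the mean log2 CPM of the higher genes minus that of the lower genes, halved and centred on the sedentary groups. Late exercise libraries scored between 0.628 and 0.749 (mean 0.679 ± 0.056, SD) and early exercise libraries between -0.741 and -0.584 (mean -0.675 ± 0.0577). Early exercise replicate 3 scored -0.703, within the range of its group. Late control libraries scored 0.619 to 0.851 and early control libraries -0.821 to -0.664, wider apart than the exercised groups on genes that the sedentary libraries themselves had chosen.

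**Figure D5:**
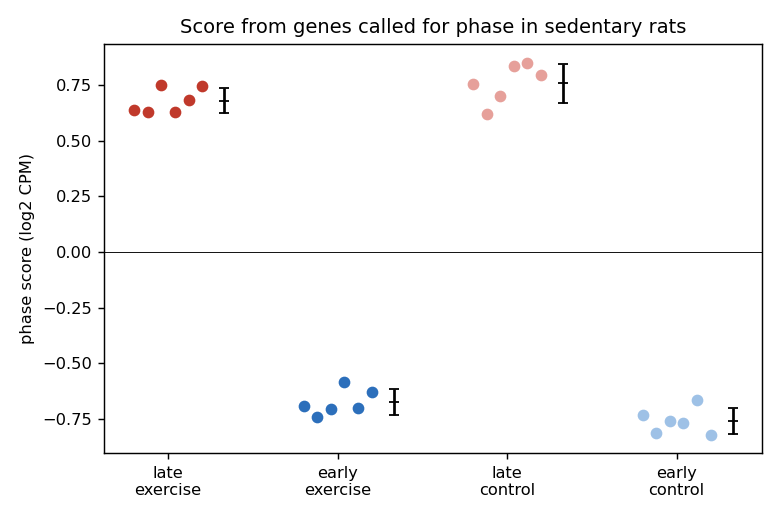
Phase score of each VAT library (log2 CPM, from 95 genes higher and 109 lower late in sedentary rats), with the mean and SD of each group at its right. Late exercise libraries lie between 0.628 and 0.749 and early exercise libraries between -0.741 and -0.584, early replicate 3 among them.

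In SAT of the same groups of exercised rats 383 of 13817 genes were called (2.77%), and 18 of the 24 ranked genes were among them, all in the same direction as in VAT. The third rise, the fourth, the seventh and the twelfth, and the fifth and the eleventh fall, were not called there, and the fifth fall had the opposite sign, at 27.1 CPM late and 2.62 CPM early (log2 fold change 3.38, adjusted p = 0.0943, edgeR). The SAT values here are group means, without their spread between rats. No label ties a SAT library to the VAT library of the same rat. All 4 named IDs were called. ENSRNOG00000013408 averaged 58.2 CPM late and 1.72 CPM early, ENSRNOG00000014448 52.1 and 3.13 CPM, ENSRNOG00000009329 3.64 and 90.9 CPM, and ENSRNOG00000042717 0.613 CPM late and 9.09 CPM early.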

How the data were processed

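The authors deposited estimated counts per gene, as whole numbers and not normalised, over 48 libraries and 23481 Ensembl IDs. The submitters' processing notes name Salmon 1.4.0 and rn6. Per the labels, polyA RNA was sequenced as single-end reads and only RNA with a high integrity score was used. Neither the annotation release nor the way transcripts were summed is given in the sources used here. Reads of near-identical or overlapping genes may be divided between IDs in such estimates.

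Columns were matched to samples by the library names in the labels, in which AM and PM stand for early and late; 0 columns were left without a sample. Of the IDs, 0 matched the table of rat gene names, so the gene lists and marker lists drawn up for this comparison were not analysed here and no promoter sequences could be shown. The rule for named genes (12 rises and 12 falls by log2 fold change, called, with a symbol, with a group mean of 5 CPM or more, and without overlap between groups) was then used without symbols, with IDs printed for the 2 largest in each direction. The members and lists were chosen with earlier results of these data known.

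The estimated counts, already whole, went into edgeR 4.0.16 under R 4.3.3 (filterByExpr, TMM, quasi-likelihood fit, Benjamini-Hochberg adjusted p under 0.05 over all genes tested): the 12 exercised VAT libraries for the phase comparison, the 12 sedentary ones for the same comparison without exercise, and all 24 for the interaction and for sedentary CPM values. Standard errors are the log2 fold change over the square root of F. Log2 CPM used a prior count of 2. The script was tested on simulated data. The labels count 6 rats per group, so replicates were taken as separate rats. The 30 pairs of libraries within the 2 groups differed by more than sampling noise (chi-square per degree of freedom 11.2 to 96.9). That tells them from repeat sequencing of 1 library, but cannot show that they came from separate rats. A gene with 0 counts could still lie at up to 0.198 CPM in the smallest library (3 counts), which covers counting error only. Alternatives were DESeq2 1.42.0 size factors and Wald test, voom with quality weights per sample (limma 3.58.1), no filter beyond 1 count, a replicate block, a fit of all 4 VAT groups, and leaving out each library or the atypical pair.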

Additional observations from a re-analysis of the deposited data

Results flagged for a closer look

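Within each group of 6 exercised libraries, 12 measures were checked for a library far from the others: the total, the genes with a count, the raised genes, the median rank correlation and the CPM of the 8 genes plotted. Of these 24 checks 5 found one, and 4 of the 5 fell on early exercise replicate 3. That library was already set apart as atypical, and the 8 genes were chosen by their values in these libraries. The flags are therefore a description. Early exercise replicate 3 had a count for 17034 genes (15959 to 16240 in the other early exercise libraries) and 307 genes raised over 4-fold (6 to 21). Its median rank correlation was 0.948 (0.977 to 0.98), and it held 5.26 CPM of ENSRNOG00000014448 (1.59 to 2.33). The measures are not independent. Late exercise replicate 5 held 5.24 CPM of ENSRNOG00000009329, against 1.5 to 2.66 CPM in the other late exercise libraries.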

How the results depend on the processing

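The count of genes called between late and early exercise (2262) lay between 1728 and 2994 when 1 library was left out, the highest without early exercise replicate 3. It was 3462 with limma voom and 3404 in the fit of all 4 VAT groups without the atypical pair; 2233 and 2148 of the first calls were among these. DESeq2 size factors gave 2265, no filter beyond 1 count 1954, the DESeq2 Wald test 2770 and the fit of all 4 groups 2919. The share of calls that were higher late stayed between 45% and 49.8% over these settings. The count for the interaction (0) was 2 with the DESeq2 Wald test and 0 in every fit that left out 1 library, with 716 to 1425 genes at an unadjusted p under 0.05; the smallest adjusted p was 0.0694 without late exercise replicate 6. The cause of these shifts was not tested.

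With the number as a replicate block 1739 genes were called and the interaction had 0. Correlations of same-numbered deviations ran from -0.074 to 0.125, and 2 of 6 late and 0 of 6 early libraries correlated best with their own number, so the numbers were not taken as pairs; the groups hold different rats.

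For the 24 ranked genes, none reversed in 455 refitted values over 19 settings. The genes were chosen for large fold changes without overlap in these same libraries, so a reversal was hardly possible. Of the values, 8 no longer passed the threshold, all of the fifth largest fall, and DESeq2 gave this gene no adjusted p. Low counts limited precision, with a median SE of 0.23 on the log2 scale in the lowest of 4 bins by mean count. Without symbols nothing here bears on which cells carry a change.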
